A study of Mus musculus with 9 samples.

Results

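Heterochromatin protein 1 (HP1) and its partners read or carry out silencing by methylation of lysine 9 of histone H3 (H3K9), and 10 of their genes were followed in RNA sequencing of mouse embryonic fibroblasts (MEFs). The genes are Cbx1, Cbx3 and Cbx5, which encode the HP1 proteins, and Trim28, Atf7ip, Mphosph8, Morc3, Wiz, Atrx and Daxx. They were chosen by function, with earlier results of these data known. Their Ensembl identifiers were matched to symbols among the 47937 genes of the count table. All 10 passed the filter on low counts and are among the 15540 genes tested. WT, S1S2 and G9Gl were compared with 3 libraries each. WT is a clonal MEF line in which Eset1 (Setdb1) can be deleted by a tamoxifen-inducible Cre, and this conditional allele is shared by all 9 libraries. The labels name no tamoxifen treatment. S1S2 cells carry CRISPR/Cas9 disruptions of Suv39h1 and Suv39h2, and G9Gl cells carry disruptions of G9a (Ehmt2) and Glp (Ehmt1). Per the study's methods, which are assumed to describe these libraries, each mutant was isolated from the WT line as a clone without detectable target protein, so genotype and clone cannot be told apart in any comparison. After disruption, a construct with inducible Cre, EGFP and puromycin resistance was put in again, and puromycin selection was kept on. Whether WT and these mutants differ in this is not stated. Any such difference cannot be told apart from genotype either. The methods call the 3 libraries of a cell line biological replicates without saying how they were separated, so the p-values measure the spread between samples of 1 clone.

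Methylated H3K9 is bound by the chromodomain of HP1, and HP1 dimers recruit further repressors through their chromoshadow domain. SUV39H enzymes place H3K9 trimethylation at pericentromeric repeats and G9a with GLP place mono- and dimethylation in euchromatin. SETDB1 is directed to endogenous retroviruses and zinc finger genes by TRIM28 and is stabilised by ATF7IP, while the HUSH complex, of which MPHOSPH8 is a subunit, silences integrated elements. ATRX and DAXX deposit histone H3.3 at heterochromatin.

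The libraries held 21319778 to 32157623 gene counts, and a member had between 559 and 27883 counts in a library. The transcripts of the targeted genes were still present in the mutant libraries. Suv39h1 had 38.3 to 44.2 CPM (gene counts scaled to library size) in S1S2 against 103 to 113 in WT, whereas Suv39h2 had 52.7 to 57.4 in S1S2 against 33.2 to 34.4. Ehmt1 had 48.6 to 51.8 CPM in G9Gl against 102 to 106 in WT, and Ehmt2 51.9 to 57.4 against 114 to 132. Frameshift mutations need not lower a transcript, so these levels alone do not test the labels. The label of fibroblasts was checked with 8 fibroblast genes, whose summed level was 9795 to 11294 CPM in WT, 7369 to 7430.3 in S1S2 and 7718 to 8573 in G9Gl. Markers of other cell types (14 genes) summed to 7.14 to 8.02, 7.91 to 8.87 and 12.8 to 14.7 CPM, and 12, 11 and 11 of them were under 1 CPM in every library of WT, S1S2 and G9Gl. Of the 8 fibroblast genes, 6 fell, 1 rose and 1 did not pass the test in each mutant. Mean levels in WT, S1S2 and G9Gl were 2395, 395 and 2029.6 CPM for Col1a2, and 1527, 190.1 and 844 for Col3a1. They were 14.5, 3.54 and 4.02 CPM for Pdgfra and 4.98, 2.05 and 38.3 for Thy1, so single markers moved further than their sum. The part of these differences in the results was not tested. In bulk RNA, fewer cells with a transcript and less RNA per cell cannot be told apart.

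The start sites of the members were described from RefSeq sequence of the build GRCm38.p6, taking the 201 bases from 250 to 50 bases before each start so that the window ends ahead of the RefSeq start. GGGCGG, the GC box read on both strands, was in the windows of 7 of the 10 genes and in 24.8% of the 32817 distinct windows of all genes. CCAAT, also on both strands, was in 6 of 10 and in 28.6% of all windows, and TATAAA was in 0 of 10 and in 9.18%. The windows of the members held 5 to 23 CG dinucleotides with a median of 13.5, against a median of 4 over all windows, and all 10 were above that value. These are descriptions of letters in a window and not of bound sites. The windows of the gene with the highest fold change in S1S2 (Atf7ip, chr6:136518601-136518801, plus strand) and of the genes that rose and fell most in G9Gl (Daxx, chr17:33909195-33909395, plus strand, and Morc3, chr16:93831871-93832071, plus strand) are printed with the GC box and the CCAAT box of either strand in capitals. Of overlapping copies only the first is in capitals, and in Daxx another GC box overlaps the end of the marked one. The Atf7ip window precedes the RefSeq start and lies inside the longer GENCODE gene.
Atf7ip: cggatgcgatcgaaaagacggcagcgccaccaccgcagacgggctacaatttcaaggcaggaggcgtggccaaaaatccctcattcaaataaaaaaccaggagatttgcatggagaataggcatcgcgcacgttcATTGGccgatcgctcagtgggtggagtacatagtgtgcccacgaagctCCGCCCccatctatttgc
Daxx: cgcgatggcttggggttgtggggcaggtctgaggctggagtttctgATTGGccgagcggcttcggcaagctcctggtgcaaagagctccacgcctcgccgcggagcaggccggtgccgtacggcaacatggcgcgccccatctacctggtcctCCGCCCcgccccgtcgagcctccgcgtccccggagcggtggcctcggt
Morc3: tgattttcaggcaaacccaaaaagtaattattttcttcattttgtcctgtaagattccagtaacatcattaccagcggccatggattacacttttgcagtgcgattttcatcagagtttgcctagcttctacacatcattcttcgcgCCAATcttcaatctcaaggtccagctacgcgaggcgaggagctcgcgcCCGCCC
All 3 windows hold a GC box and a CCAAT box, although the genes differ in direction. The annotated start of Cbx3 lies 466 bp from that of Hnrnpa2b1 and the start of Cbx5 lies 616 bp from that of Hnrnpa1, in both cases on opposite strands. The window of Hnrnpa2b1 (chr6:51469944-51470144, minus strand), which lies between the start sites of that pair, is printed because Cbx3 was lower in both mutants. It holds 20 CG dinucleotides and none of the 3 motifs.
Hnrnpa2b1: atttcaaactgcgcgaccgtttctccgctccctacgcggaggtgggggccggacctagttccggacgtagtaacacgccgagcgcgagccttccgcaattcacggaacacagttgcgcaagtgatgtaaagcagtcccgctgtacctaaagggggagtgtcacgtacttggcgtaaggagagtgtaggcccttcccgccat

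Across the 10 genes, most transcript levels stayed within a narrow range and 1 gene stood apart. In S1S2, Atf7ip rose 2.04-fold while Cbx1 fell by 12.2% and Cbx3 fell by 9.91%. In G9Gl, Daxx rose by 25.4% Cbx3 fell by 18.8%, Mphosph8 fell by 16.9% and Morc3 fell by 21.6%. By the values as reported, Cbx3 alone fell in both mutants and 0 members passed the test in opposite directions. This depended on the processing. Cbx3 was at 0.00 on the log2 scale in S1S2 (adjusted p = 0.974) after a correction for GC content and length. With the median of neighbouring genes removed it was at -0.09 in G9Gl (adjusted p = 0.159). With chromosome medians removed, Cbx1 and Atrx also fell in both mutants, and Morc3 was higher in S1S2 (0.17 on the log2 scale, adjusted p = 0.00639) and lower in G9Gl (-0.18, adjusted p = 0.00478). Cbx5, Trim28, Wiz and Atrx passed the test in neither mutant by the values as reported. Values are CPM scaled by TMM factors, given per library and as mean ± SD with n = 3. A change means an adjusted p of at most 0.01 in the quasi-likelihood F test of edgeR, with Benjamini-Hochberg adjustment over all 15540 genes. A called gene also has a fold change of at least 2. Standard errors (SE) and 95% intervals rest on the replicate spread of that gene's own log2 CPM.

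Against WT, 3 of 10 members passed the test in S1S2. Of these, 1 rose and 2 fell, where 20.3% of all genes tested rose and 17.6% fell. Fold change reached 2 for 1 member, beside 9.0% of all genes called. In G9Gl, 1 member rose and 3 fell, where 19.0% of all genes rose and 16.0% fell, and 0 of 10 were called, beside 10.2% of all genes. Each of these counts lies within 2 genes of what its background share would give for 10 genes. The median log2 fold change of the members was -0.06 in S1S2 and -0.09 in G9Gl, beside -0.003 and -0.007 over all genes. Their median absolute log2 fold change was 0.10 and 0.12, beside 0.25 and 0.22 over all genes. After correction for GC content and length of the transcript, the counts became 1 of 10 in S1S2, which rose, and 8 of 10 in G9Gl, of which 1 rose and 7 fell. The shares of all genes that passed after this correction were not counted, so these counts have no background beside them. That correction also moved the median of all genes in G9Gl to -0.107, so its log2 fold changes for G9Gl are to be read relative to that value. Its adjusted p-values, here and below, come from tests against 0 and not against that median. With the median of neighbouring genes within 2 Mb removed from each library, 2 members rose and 2 fell in S1S2, and 1 rose and 1 fell in G9Gl. Both comparisons share the WT libraries.

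**Figure D1:**
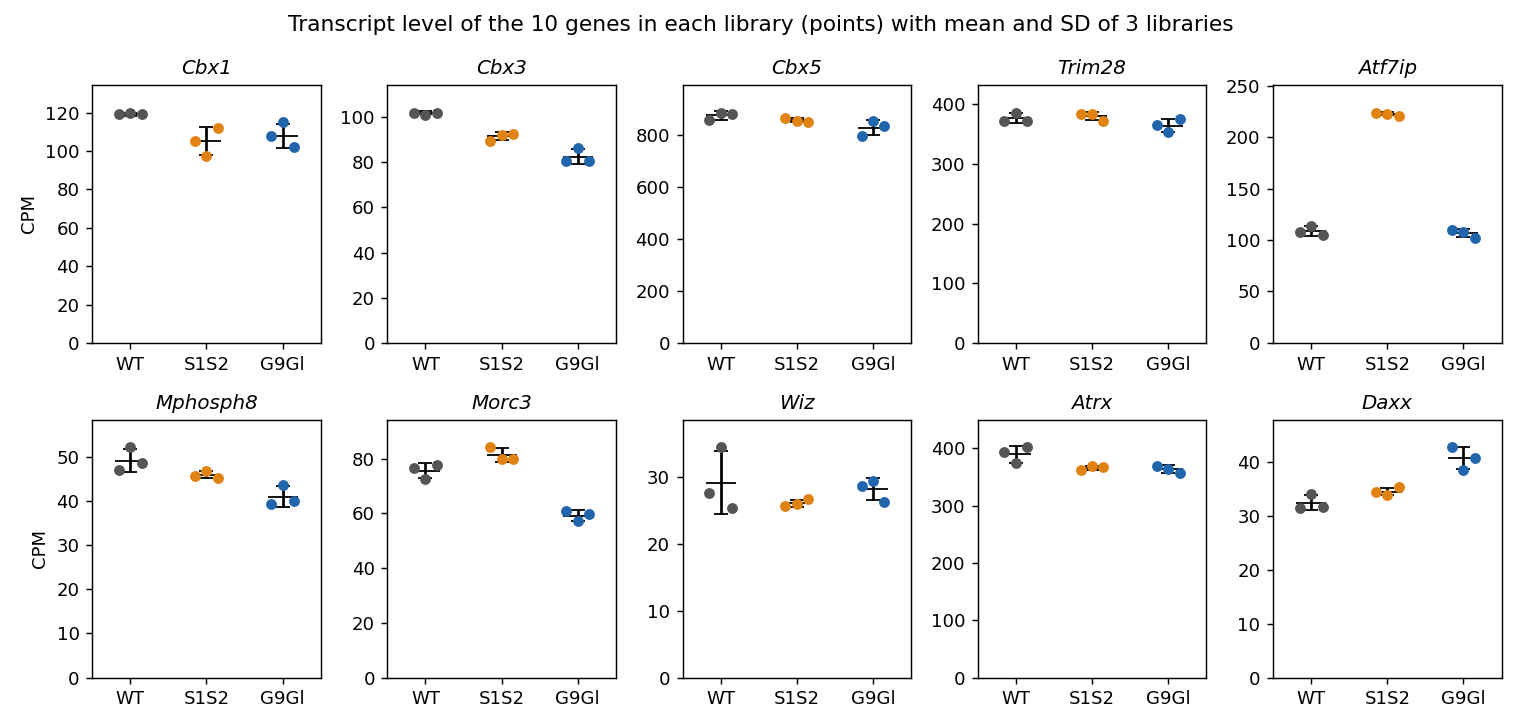
CPM (vertical axes from 0, 1 panel per gene) of the 10 genes in each of 3 WT (grey), 3 S1S2 (orange) and 3 G9Gl (blue) libraries, with horizontal and vertical black bars for mean and SD. Atf7ip lies between 221 and 224 CPM in S1S2 and between 102 and 114 in the other libraries, while the Trim28 and Wiz libraries overlap across all genotypes, with WT replicate 2 of Wiz the highest at 34.5.

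Cbx5 encodes HP1α and had the highest CPM of the members. Its levels were 858, 887 and 883 CPM in WT, 867, 853 and 852 in S1S2 and 796, 853 and 835 in G9Gl. The S1S2 libraries overlapped with WT, and the G9Gl libraries all lay below it. The log2 fold change was -0.03 in S1S2 (95% interval -0.08 to 0.02, adjusted p = 0.556) and -0.08 in G9Gl (-0.17 to 0.01, adjusted p = 0.112). Neither passed the test, and the intervals do not reach a change of 2-fold. After the correction for GC content and length, Cbx5 passed in G9Gl at -0.25 (adjusted p = 4.47e-05), where the median of all genes was -0.107. Hnrnpa1, the RNA-binding protein gene with the start site next to Cbx5, had log2 fold changes of -0.07 for S1S2 (adjusted p = 0.270) and -0.18 for G9Gl (adjusted p = 0.0102).

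Cbx1 encodes HP1β. It had 119, 120.0 and 119 CPM in WT, 105, 97.4 and 112 in S1S2 and 108, 115 and 102 in G9Gl. All libraries of both mutants lay below WT, whose 3 values were much closer together than those of the mutants. In S1S2 the log2 fold change was -0.19 ± 0.0587 (SE), adjusted p = 0.00733. In G9Gl it was -0.14 ± 0.0486, with an adjusted p of 0.0333 that did not pass. After the correction for GC content and length, Cbx1 passed in G9Gl (-0.32, adjusted p = 7.25e-05), where the median of all genes was -0.107. The S1S2 call was lost without WT replicate 1, WT replicate 2, S1S2 replicate 1 or S1S2 replicate 2, with adjusted p of up to 0.0601, after the correction for GC content and length (-0.13, adjusted p = 0.0469) and with the median of neighbours within 2 Mb removed (-0.16, adjusted p = 0.0145).

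Cbx3 encodes HP1γ, which is also found on transcribed genes. Its levels were 102, 101 and 102 CPM in WT, 89.5, 92.2 and 92.7 in S1S2 and 80.7, 86.2 and 80.5 in G9Gl. The 3 genotypes did not overlap, with WT highest and G9Gl lowest. The log2 fold change in S1S2 was -0.15 ± 0.0170 (SE) with an adjusted p of 0.00776. That in G9Gl was -0.30 ± 0.0330, adjusted p = 1.69e-05. The S1S2 call was lost when any 1 of the 6 libraries compared was left out (adjusted p of 0.0112 to 0.0429), and the log2 fold change was 0.00 after the correction for GC content and length. In G9Gl the 29 tested genes within 2 Mb of Cbx3 had a median of -0.26 on the log2 scale, and after removal of the neighbours' median from each library Cbx3 was at -0.09 (adjusted p = 0.159). Hnrnpa2b1, which encodes an RNA-binding protein, had 399, 431 and 358 CPM in WT, 330.5, 321 and 373 in S1S2 and 302, 383 and 276 in G9Gl. Its log2 fold changes of -0.21 (S1S2, adjusted p = 0.0677) and -0.31 (adjusted p = 0.0121) did not pass the test, and its libraries overlapped between genotypes. Of the 75-base stretches in annotated Cbx3 transcripts, 7.72% also occur in other genes, Cbx3 pseudogenes among them. How many reads this affects was not tested.

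The 3 HP1 genes were also compared as shares of their summed CPM per kilobase of longest annotated transcript, which does not depend on library scaling. Cbx5 made up 53.4%, 54.3% and 54.1% of the sum in WT, 56.8%, 57.2% and 55.1% in S1S2 and 55.4%, 55.5% and 57.4% in G9Gl. Cbx3 made up 19.1%, 18.5% and 18.8% in WT, 17.6%, 18.6% and 18.0% in S1S2 and 16.9%, 16.9% and 16.6% in G9Gl. The Cbx5 share was higher in every mutant library than in WT, and the Cbx3 share was lower in every G9Gl library than in any other. Cbx1 went from a mean of 27.2% in WT to 25.5% in S1S2 and 27.1% in G9Gl. The S1S2 difference of -1.70 points was -1.03 without S1S2 replicate 2 and -0.929 without division by length. The differences from WT were 2.42 percentage points for Cbx5 in S1S2, 2.14 for Cbx5 in G9Gl and -2.01 for Cbx3 in G9Gl. Each had an exact two-sided permutation p of 0.1, the smallest that 3 against 3 libraries allow, so none of the 9 comparisons of shares could pass 0.05. Without division by length, the Cbx5 difference in S1S2 and the Cbx3 difference in G9Gl were smaller.

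**Figure D2:**
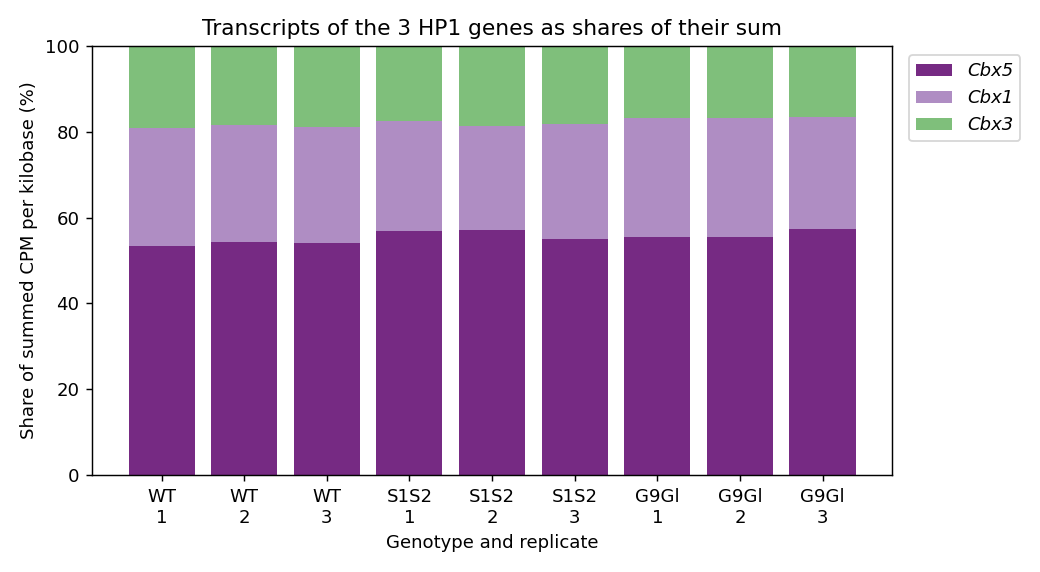
Stacked bars of the share (%, vertical axis from 0 to 100) of Cbx5, Cbx1 and Cbx3 in their summed CPM per kilobase, 1 bar per library of WT, S1S2 and G9Gl. The lowest segment (Cbx5) spans 53.4% to 54.3% in WT and 55.1% to 57.4% in the mutants, and the top segment (Cbx3) is smallest in G9Gl.

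Atf7ip (chr6:136506167-136610862, plus strand, GRCm38) encodes a nuclear partner of SETDB1 that protects it from degradation. It had 108, 114 and 105 CPM in WT and 224, 223 and 221 in S1S2. In G9Gl the 3 libraries had 110.0, 108 and 102. Every S1S2 library was above all WT and G9Gl libraries, which overlapped each other. The log2 fold change in S1S2 was 1.03 ± 0.0371 (SE, 95% interval 0.93 to 1.13), adjusted p = 4.81e-12. In G9Gl it was -0.03 (-0.17 to 0.10), adjusted p = 0.583, and -0.17 (adjusted p = 0.00242) after the correction for GC content and length. The median of all genes in that corrected G9Gl fit was -0.107. The S1S2 difference passed the test in every alternative run, but its size lies at the cutoff of 2-fold. Without WT replicate 3 it fell just short of the cutoff, and it was 0.98 after the correction for GC content and length, 1.00 without chromosome medians and 0.92 without the median of neighbours, so that 0 members were called in S1S2 under each.

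The genes around Atf7ip did not move with it as a group. In S1S2 the 28 tested genes within 2 Mb had a median of 0.04 on the log2 scale, with quartiles of -0.27 and 0.34, and 3 of them were above Atf7ip. In G9Gl their median was -0.01. Gm44140, an antisense transcript that overlaps Atf7ip, had 10 counts in all 9 libraries together, compared with at least 3010 for Atf7ip in each. Of the 75-base stretches of Atf7ip, 0.508% occur in other genes. Over the 9 libraries, the tested genes whose log2 CPM was most like that of Atf7ip were Tgfa (Pearson r = 0.9994), Zfp978 (0.9964) and Hspb8 (0.9963). Tgfa averaged 8.32 CPM in S1S2 against 0.0643 in WT and 0.0582 in G9Gl. Zfp978 and Hspb8 averaged 11.2 and 3.60 CPM in S1S2 and had no counts in the other genotypes. The points of these correlations form 2 clusters, S1S2 and the rest, so the coefficients describe that split and nothing within it.

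**Figure D3:**
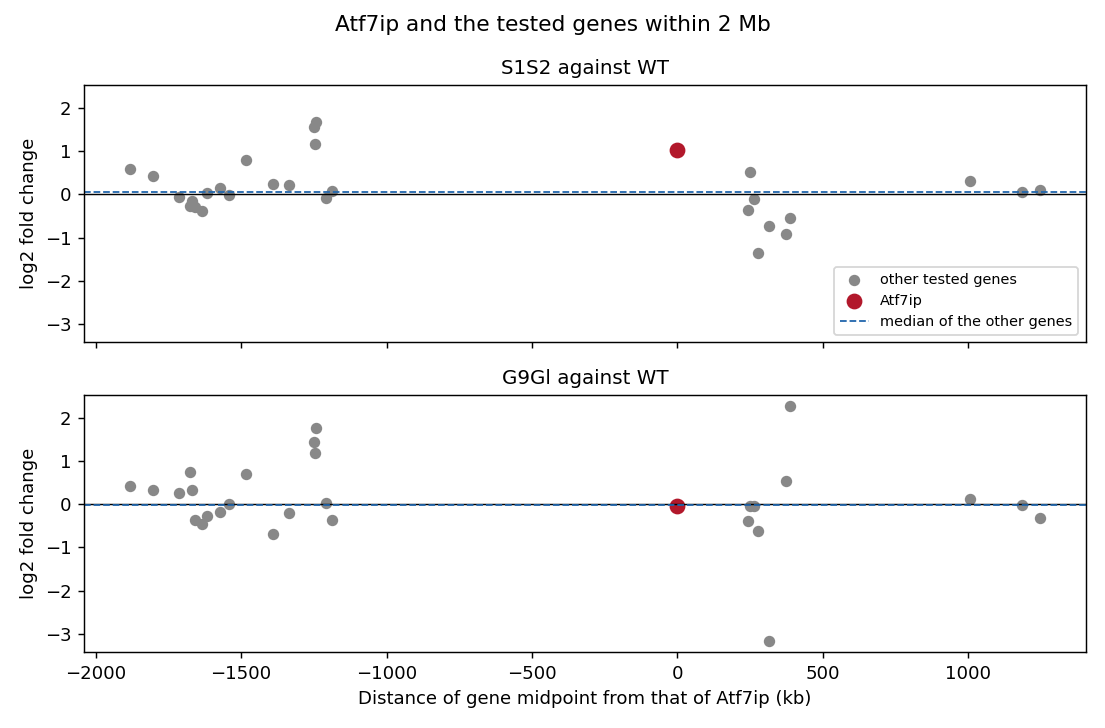
Log2 fold change (vertical axis) against the distance in kb of each tested gene's midpoint from that of Atf7ip (horizontal axis), for S1S2 against WT above and G9Gl against WT below, with Atf7ip in red, the 28 other genes in grey and their median as a dashed line. In S1S2, Atf7ip is at 1.03 and the median at 0.04, and in G9Gl both lie near 0.

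Trim28 encodes KAP1, the corepressor that KRAB zinc finger proteins bring to DNA. It had 372, 386 and 372 CPM in WT, 384, 384 and 372 in S1S2 and 365, 353 and 375 in G9Gl. All 3 genotypes overlapped. Log2 fold changes were 0.01 in S1S2 (95% interval -0.05 to 0.08, adjusted p = 0.810) and -0.05 in G9Gl (-0.13 to 0.04, adjusted p = 0.336).

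Mphosph8 (chr14:56668248-56697430) encodes MPP8, the chromodomain subunit of HUSH. It had 46.9, 52.1 and 48.5 CPM in WT, 45.6, 46.8 and 45.2 in S1S2 and 39.2, 43.5 and 39.9 in G9Gl. The G9Gl libraries were below all others. The log2 fold change was -0.27 ± 0.0650 (SE) in G9Gl, adjusted p = 0.000802, and -0.10 in S1S2, adjusted p = 0.168. Its exons share 384 bp with the antisense transcript Gm16973, which had 2063 counts over the 9 libraries. Whether strand was used in counting is not given in the sources used here, so part of either count may belong to the other gene.

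Morc3 (chr16:93832121-93876073) encodes a nuclear ATPase of PML bodies. Levels were 76.5, 72.6 and 77.7 CPM in WT, 84.1, 79.7 and 79.9 in S1S2 and 60.9, 57.1 and 59.8 in G9Gl. G9Gl was lowest and S1S2 highest, with no overlap between genotypes. In G9Gl the log2 fold change was -0.35 ± 0.0405 (SE), adjusted p = 8.67e-06. In S1S2 it was 0.10 ± 0.0386, adjusted p = 0.0805. Chromosome 16 as a whole had a median of -0.20 in G9Gl over 451 tested genes, and the 20 genes within 2 Mb of Morc3 a median of -0.23. With the median of these neighbours removed from each library, Morc3 was at -0.12 in G9Gl (adjusted p = 0.0643) and at 0.34 in S1S2 (adjusted p = 2.59e-05).

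Wiz encodes a zinc finger protein that binds the G9a/GLP dimer and stabilises it. It was the lowest member, with 27.7, 34.5 and 25.4 CPM in WT, 25.7, 26.0 and 26.8 in S1S2 and 28.7, 29.5 and 26.3 in G9Gl. WT replicate 2 was the highest library and all genotypes overlapped. Log2 fold changes of -0.16 (95% interval -0.53 to 0.21, adjusted p = 0.157) and -0.05 (-0.44 to 0.34, adjusted p = 0.666) did not pass, and without WT replicate 2 they were -0.02 in S1S2 (adjusted p = 0.820) and 0.08 in G9Gl. In S1S2 it passed only with the correction for GC content and length combined with the replicate block (-0.24, adjusted p = 0.00810). Of its 75-base stretches, 21.1% occur in other genes, mainly the antisense transcript Gm26858, which had 19 counts over the 9 libraries.

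Daxx (chr17:33909414-33915590, plus strand) encodes the histone chaperone that hands H3.3 to ATRX-bound chromatin. Its levels were 31.5, 34.0 and 31.7 CPM in WT, 34.4, 33.9 and 35.3 in S1S2 and 42.7, 38.5 and 40.7 in G9Gl. The G9Gl libraries were above all others, whereas S1S2 overlapped with WT. The log2 fold change in G9Gl was 0.33 ± 0.0556 (SE), adjusted p = 0.000119. It passed the test in G9Gl in every alternative run. In S1S2 it was 0.09 ± 0.0394, adjusted p = 0.208.

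Atrx encodes the chromatin remodeller that pairs with DAXX. It had 393, 374 and 402 CPM in WT, 362, 369 and 367 in S1S2 and 369.9, 365 and 357 in G9Gl. All mutant libraries lay below WT. The log2 fold changes of -0.09 in S1S2 (95% interval -0.18 to -0.00, adjusted p = 0.0663) and -0.10 in G9Gl (-0.19 to -0.00, adjusted p = 0.0502) did not pass the test. The 16 tested genes within 2 Mb on the X chromosome had a median of 0.16 in S1S2, and with the neighbours' median removed Atrx was at -0.24 in S1S2 (adjusted p = 0.000109) and at -0.04 in G9Gl (adjusted p = 0.431). With chromosome medians removed it passed in both mutants, at -0.22 for S1S2 (adjusted p = 0.000126) and -0.14 for G9Gl (adjusted p = 0.00490). After the correction for GC content and length it was at 0.01 in S1S2 and passed in G9Gl (-0.19, adjusted p = 0.000215). The median of all genes in that corrected G9Gl fit was -0.107.

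Between the mutants, 4 of 10 members passed the test. Of these, 1 was higher in G9Gl than in S1S2 and 3 were lower, where 21.6% of all genes were higher and 21.1% lower, and 1 was called, beside 13.1% of all genes. Atf7ip was lower in G9Gl by 1.06 on the log2 scale (-1.06 ± 0.0325, SE), adjusted p = 1.48e-12. Morc3 was lower, with a log2 fold change of -0.46 ± 0.0372, adjusted p = 3.38e-07. Daxx was higher at 0.24 ± 0.0460, adjusted p = 0.00207. Cbx3 was lower at -0.15 ± 0.0360, adjusted p = 0.00774. The libraries of the mutants did not overlap for these 4 genes, nor for Mphosph8, which did not pass. The share of all genes without overlap was not counted. Mphosph8 was at -0.17 with an adjusted p of 0.0195, so by this fit its fall in G9Gl was not shown to differ from S1S2. The difference passed at -0.41 (adjusted p = 1.38e-05) with the correction for GC content and length, at -0.20 (adjusted p = 0.00782) with the neighbours' median removed and at -0.22 (adjusted p = 0.00728) without G9Gl replicate 2. Cbx1 was at 0.04 (95% interval -0.17 to 0.25, adjusted p = 0.527), and its fall in S1S2 was likewise not shown to differ from G9Gl, although with the correction for GC content and length it was lower in G9Gl (-0.18, adjusted p = 0.00834). The Cbx3 difference was lost in DESeq2 (adjusted p = 0.0106), without a filter (0.0387), with at least 10 counts in every library (0.0138), with the replicate number as a block (0.0111), without chromosome medians (0.0279) and without any of S1S2 replicates 1, 2 and 3 and G9Gl replicates 1 and 3. It turned to 0.12 (adjusted p = 0.0569) with the neighbours' median removed. The Daxx difference was lost without S1S2 replicate 2 (adjusted p = 0.0118) or G9Gl replicate 1 (adjusted p = 0.0139), with the neighbours' median removed (0.16, adjusted p = 0.0225) and with chromosome medians removed (0.10, adjusted p = 0.141). The correction for GC content and length gave 8 members past the test, 1 higher and 7 lower, with the median of all genes at -0.095. Its tests were against 0, and the share of all genes that passed after it was not counted. Without chromosome medians, 0 members were higher in G9Gl and 3 were lower, namely Atf7ip, Morc3 and Cbx5 (-0.15, adjusted p = 0.00479).

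**Figure D4:**
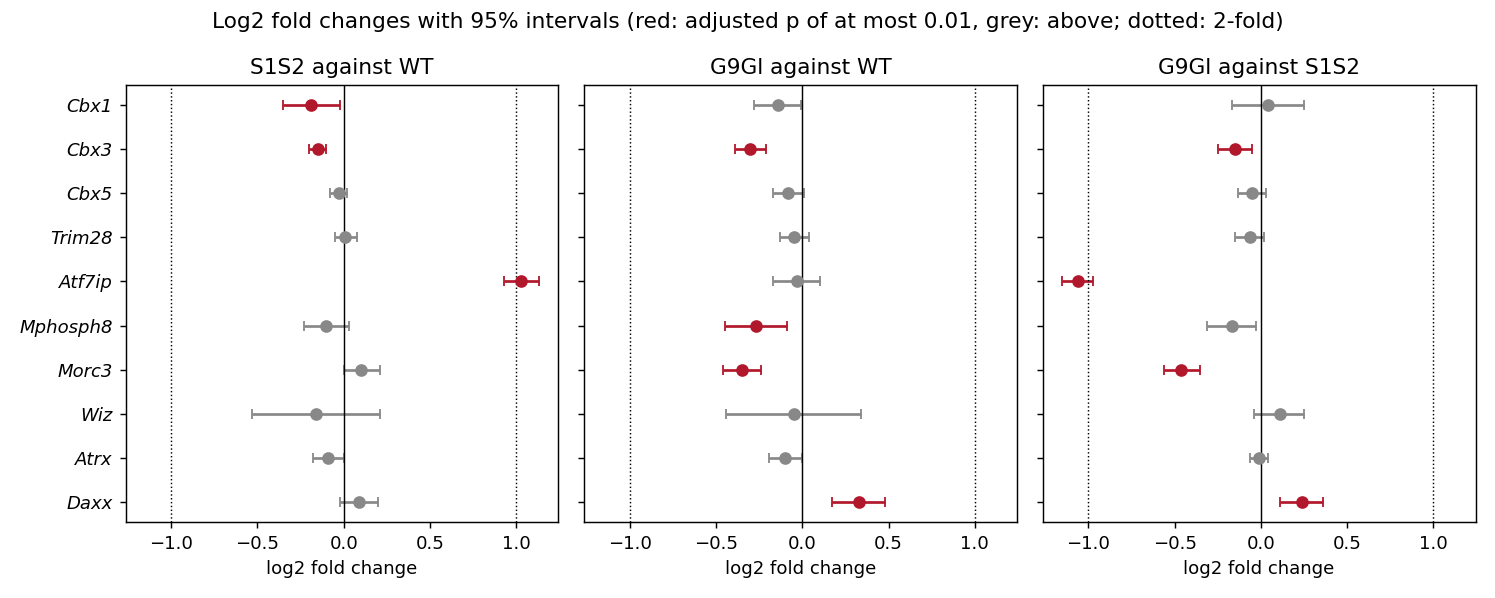
Log2 fold changes (horizontal axes) of the 10 genes for S1S2 and G9Gl against WT and for the mutants against each other (G9Gl over S1S2), with 95% intervals from the spread between libraries of each gene, red where adjusted p is at most 0.01 and grey elsewhere. Atf7ip is the only point at a dotted 2-fold line, at 1.03 in S1S2 against WT and -1.06 in G9Gl against S1S2.

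Levels of different genes were compared per kilobase of the longest annotated transcript, a scale that depends on which transcript the cells use. In WT the order was Trim28 at 116 CPM per kilobase, Cbx5 at 99.5, Cbx1 at 50.2, Atrx at 37.9, Cbx3 at 34.7, Morc3 at 18.1, Mphosph8 at 16.7, Atf7ip at 13.6, Daxx at 12.1 and Wiz at 4.54. Only Morc3 (17.4 to 18.6) and Mphosph8 (15.9 to 17.7) overlapped among neighbours in that order. In S1S2, Atf7ip at 27.7 CPM per kilobase stood above Morc3 at 19.4. In G9Gl, Daxx at 15.2 CPM per kilobase stood above Morc3 at 14.2, Mphosph8 at 13.9 and Atf7ip at 13.2. These are means, and on this scale the G9Gl libraries of Daxx overlapped with those of Morc3 and Mphosph8.

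A list of 30 other genes of H3K9 silencing gives the surroundings of the 10 members, and 28 of them were tested. In S1S2, 9 of 28 rose and 11 fell, beside 20.3% and 17.6% of all genes. The 11 that fell became 6 without S1S2 replicate 1 and 7 without WT replicate 1 or S1S2 replicate 3, and the number that rose was 9 in each case. In G9Gl, 4 rose and 11 fell, beside 19.0% and 16.0% of all genes. Called were 4 genes in S1S2 (Suv39h1, Trim24, Sp100 and Atf7ip2) and 3 in G9Gl (Ehmt1, Ehmt2 and Sp100), beside 9.0% and 10.2% of all genes. Of the 6 methyltransferase genes, 2 rose and 3 fell in S1S2, and 0 rose and 3 fell in G9Gl. These counts and those of the whole list include the disrupted genes. Suv39h1 is among the falls and Suv39h2 among the rises in S1S2, and Ehmt1 and Ehmt2 are among the falls in G9Gl. Of 3 MORC relatives of Morc3, 1 was tested and it passed in neither mutant. Among relatives of the members, Trim24, a paralogue of Trim28, had 86.2, 86.1 and 87.7 CPM in WT and 360.4, 359 and 350.2 in S1S2. In G9Gl it had 68.8, 70.8 and 72.0 CPM, so S1S2 was above and G9Gl below WT without overlap. Its log2 fold change in S1S2 was 2.04 (adjusted p = 1.16e-16), and that in G9Gl was -0.30 (adjusted p = 9.01e-06). Trim33, another relative that was chosen after its values were seen, rose by 0.53 for S1S2 (adjusted p = 7.13e-08) and was at -0.08 in G9Gl (adjusted p = 0.181).

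Atf7ip2, the paralogue of Atf7ip, was at or under the floor of 3 counts in each WT library and had 1.15, 1.13 and 1.18 CPM in S1S2. This was at least 12.0-fold higher than WT (adjusted p = 3.72e-06). It had no counts in G9Gl. Both genes of the ATF7IP family therefore rose in S1S2, to means of 223 CPM for Atf7ip and 1.15 for Atf7ip2. Setdb1, which encodes their enzyme partner, fell by 0.37 on the log2 scale for S1S2 (adjusted p = 2.05e-05) and was at -0.16 in G9Gl (adjusted p = 0.0173). Setdb2 was at -0.15 and -0.03 and passed in neither.

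Fam208a, which encodes TASOR, the scaffold of HUSH with MPHOSPH8, had 82.4, 72.5 and 87.4 CPM in WT, 118, 119 and 127 in S1S2 and 62.6, 62.4 and 56.7 in G9Gl. It rose by 0.59 for S1S2 (adjusted p = 4.89e-07) and fell by 0.42 in G9Gl (adjusted p = 2.98e-05), and the genotypes did not overlap. Of the 3 genes of HUSH and its partner MORC2 in the list, 2 rose and 1 fell in S1S2 and 1 rose and 1 fell in G9Gl, where 20.3% and 17.6% of all genes rose and fell in S1S2 and 19.0% and 16.0% in G9Gl. Sp100, a PML body gene, was at or under 3 counts in each WT library, with a level at least 26.5-fold higher for S1S2 (adjusted p = 2.68e-09) and at least 84.0-fold higher for G9Gl (adjusted p = 3.32e-12). Of the 4 genes listed for histone H3.3 and PML bodies, 2 rose and 2 fell in each mutant. H3f3a, which encodes H3.3, the cargo of DAXX, was chosen after its values were seen and fell by 0.30 for S1S2 (adjusted p = 3.73e-05) and by 0.42 in G9Gl (adjusted p = 7.90e-07). The 40 tested genes within 2 Mb of H3f3a on chromosome 1 had medians of -0.14 in S1S2 and -0.46 in G9Gl, where 19 of them lay above H3f3a.

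Of 8 genes for HP1 partners and other readers, 0 rose and 4 fell in each mutant. Of all genes, 20.3% rose and 17.6% fell in S1S2, and 19.0% rose and 16.0% fell in G9Gl. Lbr, the inner nuclear membrane receptor that binds HP1, was also chosen after its values were seen. It had 209, 206 and 205 CPM in WT, 189, 186 and 187 in S1S2 and 135, 143 and 146 in G9Gl, without overlap between genotypes. Its log2 fold change in S1S2 was -0.14 (adjusted p = 0.00776), and that in G9Gl was -0.55 (adjusted p = 4.49e-09). The 43 tested genes within 2 Mb of Lbr had medians of -0.10 in S1S2 and -0.41 in G9Gl, and chromosome 1 was at -0.13 and -0.26. Of the 3 genes grouped as partners of G9a and GLP, the company of Wiz, 0 rose and 1 fell in S1S2 and 1 rose and 0 fell in G9Gl. Between the mutants, 8 of the 28 genes were higher in G9Gl, 9 were lower and 6 were called, beside 21.6%, 21.1% and 13.1% of all genes. All disrupted genes are among those that passed.

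**Figure D5:**
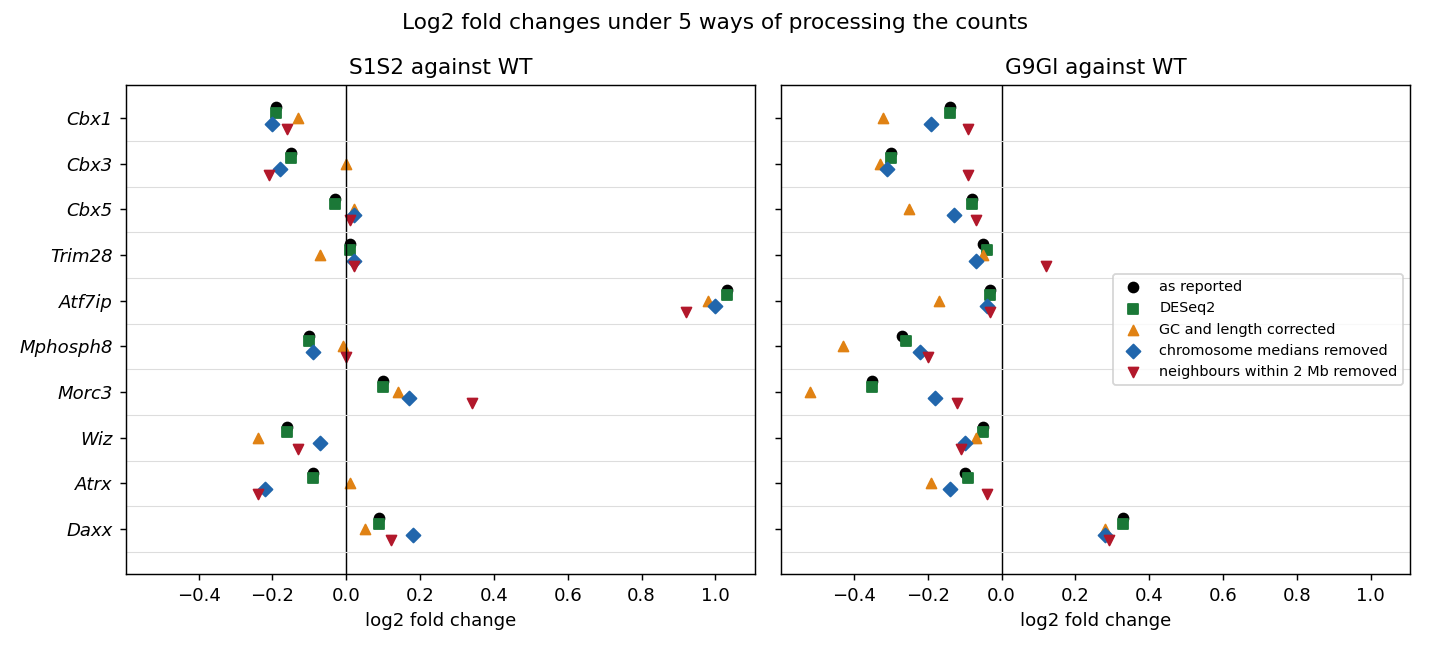
Log2 fold changes (horizontal axes) of the 10 genes in S1S2 (left) and G9Gl (right) against WT for the values as reported (circles), DESeq2 (squares), a correction for GC content and length (upward triangles), removal of chromosome medians (diamonds) and removal of the median of neighbours within 2 Mb (downward triangles). Atf7ip stays between 0.92 and 1.03 in S1S2 and Daxx on the positive side in G9Gl, while Morc3 moves from -0.35 to -0.12 in G9Gl when its neighbours are removed.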

How the data were processed

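Total RNA of 9 MEF libraries was sequenced by the authors as stranded TruSeq libraries. Per the study's methods, reads were trimmed with cutadapt, aligned to GRCm38 with STAR (2.5.2b in the submitters' processing notes) and counted per gene with TEtranscripts, which can share multiply aligned reads. The deposited table holds raw counts by Ensembl gene, without normalization. The annotation release is not given in the sources used here. Of 47937 genes, 47224 were matched to GENCODE M21, and positions and lengths are from that annotation. No count was recorded for 21449 genes.

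All libraries entered a single fit in R 4.3.3 with edgeR 4.0.16 (TMM, filterByExpr, glmQLFit, glmQLFTest, Benjamini-Hochberg over 15540 genes), with a coefficient per genotype. SEs used log2 CPM with a prior count of 2. The common biological coefficient of variation was 5.36%, and 3 counts correspond to 0.0923 to 0.141 CPM. Floors cover counting error only. The steps were tested on simulated data. Alternatives were DESeq2 1.42.0 and its size factors, no composition factor, other filters, an adjusted p of 0.05, the compared libraries alone, the replicate block, GC and length splines with 5 degrees of freedom, chromosome medians, and each library left out. Removal of the median deviation of neighbours within 2 Mb and lengths of all exons joined were added after seeing the data.

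The members and lists were chosen with earlier results of these data known. Named are the members, the 6 H3K9 methyltransferase genes, list genes called in any of the 3 comparisons or with the 3 largest changes that passed the test in each mutant, Hnrnpa2b1, Hnrnpa1, and the 3 genes most correlated with the member of widest range. Trim33, H3f3a and Lbr fall outside this rule and were named after their values were seen.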

Additional observations from a re-analysis of the deposited data

Results flagged for a closer look

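The S1S2 and G9Gl clones differed for 4 of the 10 genes, tested by the direct contrast of G9Gl against S1S2 in edgeR with adjustment over all genes. In the same contrast 21.6% of all genes tested were higher and 21.1% lower, so this count lies near the background. The log2 fold change of that contrast was -1.06 for Atf7ip, -0.46 for Morc3, 0.24 for Daxx and -0.15 for Cbx3. Atf7ip was higher in S1S2 than in G9Gl in 3 of 3 libraries and remained past the test in every alternative run. Morc3 lay at 79.7 to 84.1 CPM in S1S2 and 57.1 to 60.9 in G9Gl. Daxx lay at 33.9 to 35.3 CPM in S1S2 and 38.5 to 42.7 in G9Gl, and its difference did not pass after removal of chromosome medians (0.10, adjusted p = 0.141). Cbx3 lay at 89.5 to 92.7 CPM in S1S2 and 80.5 to 86.2 in G9Gl, and its difference was 0.12 in the opposite direction (adjusted p = 0.0569) once the median of neighbours within 2 Mb was removed.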

How the results depend on the processing

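The number of members past an adjusted p of 0.01 in S1S2, 3 as reported, was 1 after the correction for GC content and length and 5 without chromosome medians, and 1 to 2 with a library left out. In G9Gl, 4 as reported became 8 with that correction, alone and with the replicate block, and 2 without the median of neighbours. Between the mutants, 4 became 8 with the correction, alone and with the replicate block, and 2 to 5 with a library left out (2 without S1S2 replicate 2 or G9Gl replicate 1). The called member in S1S2, 1 as reported, became 0 with the correction, alone and with the replicate block, without chromosome medians and without the median of neighbours, and was 0 to 1 with a library left out. Between the mutants it became 0 without the median of neighbours. The cause was not tested, and the shares of all genes that passed were not counted for these alternatives. An adjusted p of 0.05 gave 3, 5 and 5 members. Total counts of the 30-gene list past the test stayed within 1.5 times in every alternative, but the 11 that fell in S1S2 became 6 without S1S2 replicate 1 and 7 without WT replicate 1 or S1S2 replicate 3.

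Same-numbered libraries correlated at -0.0686 to 0.124 in their deviations, so the numbers were not taken as pairs. With the replicate block, 2 members passed in S1S2, 4 in G9Gl and 3 between the mutants, and Cbx3 was at -0.15 in S1S2 (adjusted p = 0.0108) and between the mutants (adjusted p = 0.0111).

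Some small differences changed sign. With the correction for GC content and length, with and without the block, S1S2 gave 0.00 for Cbx3, 0.02 for Cbx5, -0.07 for Trim28 and 0.01 for Atrx, and G9Gl against S1S2 gave -0.18 for Cbx1 (adjusted p = 0.00834) and 0.02 for Trim28. Without chromosome medians, Cbx5 was at 0.02 in S1S2, and between the mutants Wiz was at -0.03 and Atrx at 0.08. Without the median of neighbours, Cbx5 was at 0.01 in S1S2 and Trim28 at 0.12 in G9Gl, and between the mutants Cbx3 was at 0.12, Trim28 at 0.09 and Atrx at 0.19 (adjusted p = 0.000550). Trim28 in S1S2 was at -0.01 without a composition factor, and at -0.00 without a filter or without WT replicate 1 (-0.00 to 0.03 with a library left out). Atrx between the mutants was at 0.01 without a filter, with at least 10 counts in every library or without G9Gl replicate 3, and at 0.00 without S1S2 replicate 2 (-0.02 to 0.01). Cbx1 between the mutants was at -0.00 without S1S2 replicate 2 or G9Gl replicate 2 (-0.00 to 0.09). Without WT replicate 2, G9Gl gave 0.00 for Atf7ip (-0.06 to 0.00 with a library left out) and 0.08 for Wiz (-0.14 to 0.08).

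Without division by length, the share of Cbx3 differed by -1.16 points in G9Gl against WT and -0.584 between the mutants, and that of Cbx5 by 1.51 in S1S2. With all exons joined, Cbx3 was at -1.42 and -0.800. With a library left out, Cbx1 ranged from -0.447 to 0.441 in G9Gl against WT and Cbx5 from -0.931 to 0.137 between the mutants.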
